A study of Danio rerio with 12 samples.

Results

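The arrays numbered 1 and 2 of a zebrafish blastula series, 4 of its 12 arrays, were set against the arrays numbered 3 to 5, 6 of the 12, to find which transcripts separate these embryo batches. The members of both sets were chosen by the likeness of the arrays in the same log2 signals that are described here, so the differences between the sets of experiments are a description and carry no test. All pools were of 20 embryos of the ABTL strain. Each experiment paired an ethanol pool, exposed to 100 mM in embryo medium between 2 and 4.5 hours post fertilization (hpf), with a control pool in plain embryo medium, and total RNA of both was taken at 4.5 hpf. Experiments 1 and 2 thus hold 2 ethanol and 2 control arrays, and experiments 3 to 5 hold 3 of each. Experiment 6, with 1 array of each treatment, stayed out of the contrast and is given beside it, and a further experiment was left out by the study for low RNA integrity. The labels number the arrays within each treatment, and equal numbers were taken as 1 experiment. They say nothing of parents, clutch, date or staging, and the methods say that the arrays were handled in parallel. A pool is a mixture of embryos, so that fewer cells of a type and less RNA per cell cannot be told apart.

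The zebrafish egg is loaded with maternal transcripts that drive the first cell divisions. The embryo's own genome is switched on in the mid-blastula, and maternal transcripts are then degraded while zygotic ones build up, so that the balance of both moves with developmental age. Heat, low oxygen and crowding are known to induce chaperone, hypoxia and immediate early genes. An Affymetrix probe set reads a fixed stretch of sequence near the 3′ end of a transcript, and a variant under its probes can lower the signal at the same transcript level.

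The arrays fell into 3 kinds. For each of 9963 probe sets, the mean of its treatment was subtracted from every array, and these deviations were correlated across probe sets. Among the 4 arrays of experiments 1 and 2 the correlations were 0.340 to 0.510, and among the 6 arrays of experiments 3 to 5 they were 0.224 to 0.428. Between both sets they were -0.561 to -0.316. The pair of arrays of experiment 6 correlated at 0.626 with each other, at -0.233 to -0.0934 with experiments 1 and 2 and at -0.266 to -0.130 with experiments 3 to 5. Deviations from a treatment mean sum to 0 over its arrays, so that some negative correlation is built in. The negative values of experiment 6 thus do not by themselves set it apart. Experiments 1 and 2 and experiments 3 to 5 were also chosen by this likeness. The probe sets that differed at least 2-fold in the same direction in both treatments were counted for every pair of experiments. They numbered 54 between experiments 1 and 2 and 33 to 40 within experiments 3 to 5, but 453 to 575 between an experiment of the first set and one of the second. Experiment 6 differed in 445 to 494 from experiments 1 and 2 and in 340 to 367 from experiments 3 to 5. Once the mean of the set was removed too, the arrays of 1 experiment no longer resembled each other. The ethanol and control arrays of experiments 3, 4 and 5 then correlated at 0.0253, 0.0194 and 0.0510.

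**Figure D1:**
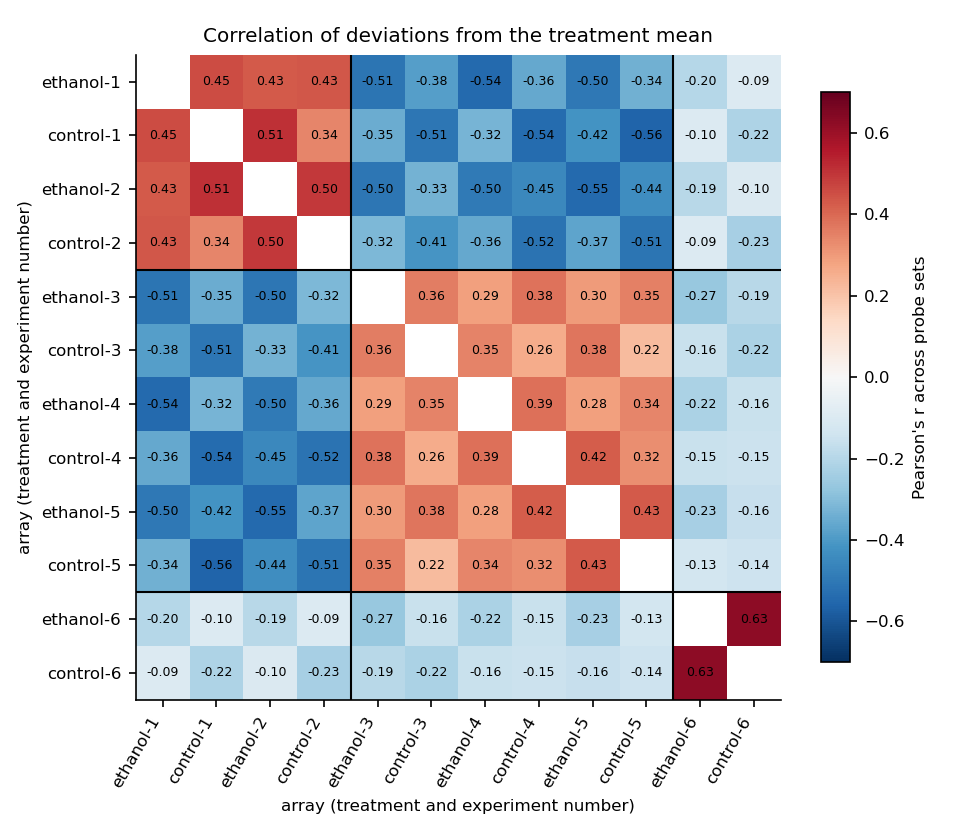
Pearson correlations, across 9963 probe sets, of each array's deviations from its treatment mean (both axes list the 12 arrays by treatment and experiment number, and black lines separate experiments 1 and 2, 3 to 5, and 6). The blocks of 4 and of 6 arrays are positive (0.340 to 0.510 and 0.224 to 0.428) and the block between them is negative (-0.561 to -0.316). Both sets were chosen by this likeness, and subtracting the treatment mean builds in some negative correlation.

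A probe set was called where its treatment-adjusted log2 signal differed at least 2-fold between the sets and no array of one set lay within the range of the other. The 9963 probe sets tested were those whose mean signal reached 50 in at least 1 of the sets, and of these 301 (3.02%) were called higher in experiments 1 and 2 than in experiments 3 to 5 and 341 (3.42%) lower. Together these 642 probe sets (6.44%) stand for 452 named genes, and 75.4% of them have a name, beside 77.7% of all tested. At least 4-fold differences were found in 43 called higher and 58 called lower. Whatever the fold, 1376 probe sets (13.8%) were higher and 1361 (13.7%) lower with no overlap between the sets. The median difference over all tested probe sets was 0.02 and the median absolute difference 0.31, both on the log2 scale. Just inside the threshold the smallest called difference was 1.0005, and the largest one outside it, among probe sets with no overlap, was 0.998. In 187 of the 642 the set with the lower signal had a mean under 50, where folds are uncertain, and in 455 both means were at least 50. The number of probe sets called depends on the scale at low signal, with 138 higher and 180 lower on log2(signal + 50). On the control arrays alone, where 2 arrays are set against 3, it was 727 higher and 494 lower. Among the added controls, the 3′ probe sets of the bacterial poly-A spikes had a geometric mean signal of 2053 on the control array of experiment 1 and 328 to 804 on the others. Without experiment 1 the counts were 370 higher and 391 lower, and without experiment 2 they were 456 and 487.

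The named genes with the largest higher signal in experiments 1 and 2 were a mixture of enzymes, chaperones and genes of little known role. *zgc:174696* had a signal of 1383 and 1353 on the ethanol arrays and 1217 and 889 on the control arrays of experiments 1 and 2, against 163 to 218 (median 182) on the 6 arrays of experiments 3 to 5. This is a log2 difference of 2.68, and the arrays of experiment 6, at 1259 and 1388, lay with experiments 1 and 2. *thumpd3*, whose product takes part in tRNA methylation, stood at 299 and 284 with ethanol and 218 and 252 in controls of experiments 1 and 2, against 19.8 to 45.6 (median 35.5) in experiments 3 to 5 (log2 difference 2.96). Experiment 6 was again on the high side for *thumpd3*, at 278 and 284. *itih2*, a gene of an inter-alpha-trypsin inhibitor heavy chain, had 139 and 193 with ethanol and 159.6 and 109.6 in controls of experiments 1 and 2, against 3.97 to 44.4 (median 27.6) in experiments 3 to 5, and 208 and 213 in experiment 6 (log2 difference 3.06). For *zgc:174288* the signals in experiments 1 and 2 were 1084 and 1025 with ethanol and 1037 and 836 without, against 49.5 to 176 (median 116) in experiments 3 to 5 (log2 difference 3.22). Its arrays in experiment 6, at 445 and 598, lay between the sets. The probes of this *zgc:174288* set are marked by the manufacturer as able to bind other transcripts. *pck2*, which encodes the mitochondrial phosphoenolpyruvate carboxykinase, differed by 2.97, with 107 to 397 in experiments 1 and 2 and 4.73 to 64.6 in experiments 3 to 5. The chaperone genes *hsp90aa1.2* (2.97) and *serpinh1b* (2.88) completed the bright ones. *tspan18a* (3.55), *mllt11* (3.45) and *fpgs* (3.09) had the top, the second and the fourth difference but were dim throughout, with no array above 82.8 in experiments 1 and 2, and the calls of *mllt11* and *fpgs* were lost on log2(signal + 50).

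Among the genes with a lower signal in experiments 1 and 2, all 10 had signals under 100 on every array of experiments 1 and 2, and most were well above that in experiments 3 to 5. *rnf13*, a ubiquitin ligase gene, had 58.0 and 44.9 with ethanol and 38.3 and 35.0 in controls of experiments 1 and 2, against 488 to 652 (median 558) in experiments 3 to 5 (log2 difference -3.69). Experiment 6, at 48.3 and 54.2, was as low as experiments 1 and 2. *eif3eb*, which encodes a subunit of the translation initiation factor eIF3, stood at 19.7 and 2.84 with ethanol and 9.73 and 25.2 in controls of experiments 1 and 2, against 282 to 342 (median 292) in experiments 3 to 5, and the control array of experiment 6 had 42.2 (log2 difference -4.81). *atp5mea*, a gene of a small subunit of the mitochondrial ATP synthase, had 39.2 and 19.6 with ethanol and 90.8 and 53.2 in controls of experiments 1 and 2, against 378 to 595 (median 470.5) in experiments 3 to 5 (log2 difference -3.42). The same pattern, low in experiments 1, 2 and 6, was found for *nr4a1*, an immediate early nuclear receptor gene, with 14.3 to 60.1 in experiments 1 and 2, 264 to 327 in experiments 3 to 5 and 28.5 and 39.0 in experiment 6 (log2 difference -3.10). It also held for *kng1*, the kininogen gene, with a log2 difference of -4.19 and 32.0 and 54.4 in experiment 6. In other genes experiment 6 was near the level of experiments 3 to 5. *tex264a*, whose product is a receptor for autophagy of the endoplasmic reticulum in mammals, had 17.9 and 7.20 with ethanol and 3.62 and 30.0 in controls of experiments 1 and 2, against 155 to 214 (median 176) in experiments 3 to 5 and 167 and 140.4 in experiment 6 (log2 difference -4.06). *zgc:174263* (-3.69), *fam171b* (-3.40) and *nicol1* (-3.30) had both arrays of experiment 6 within the range of experiments 3 to 5 or above it. *echdc2* (-3.50) was dim in every set and its call was lost on log2(signal + 50).

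**Figure D2:**
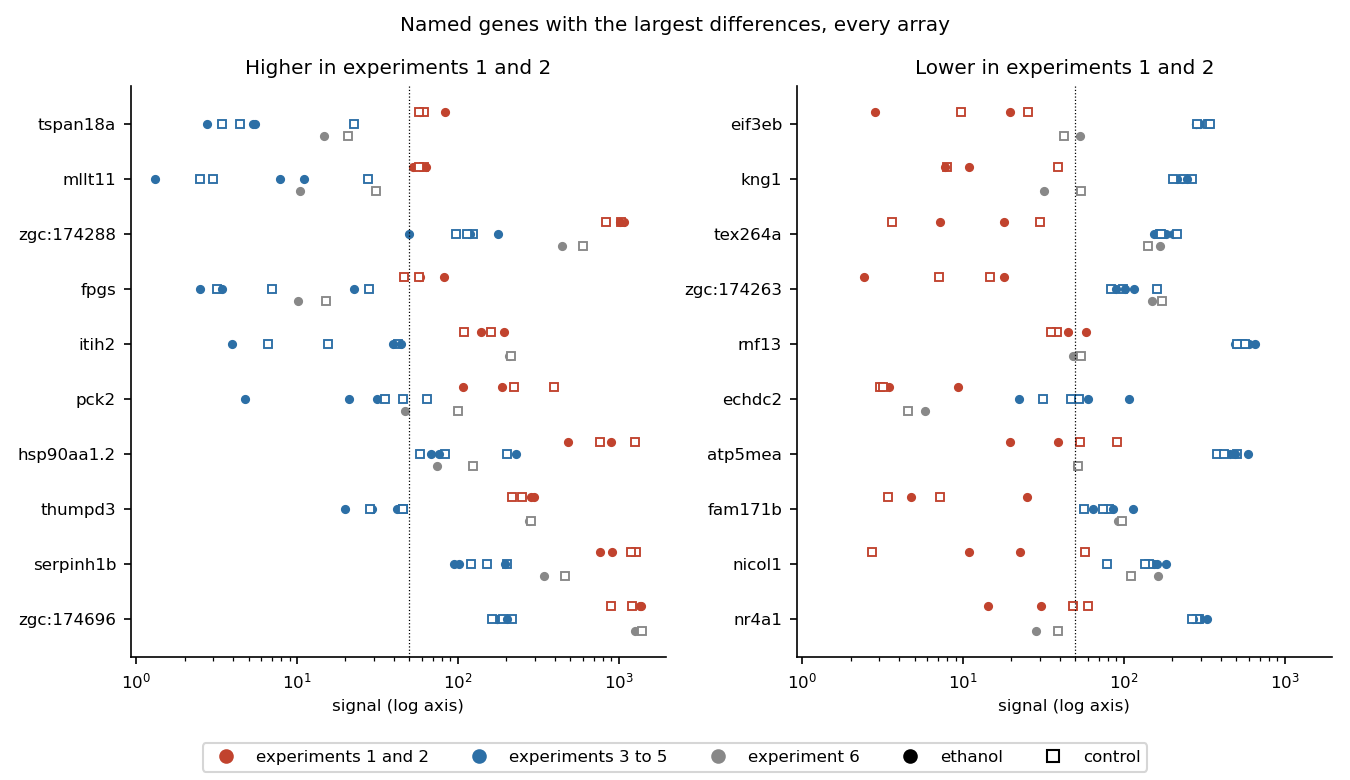
Signal on every array (log axis, with the minimum of 50 as a dotted line) of the 10 named genes with the largest higher signal in experiments 1 and 2 (left) and the 10 with the largest lower one (right). The arrays of experiment 6 lie with experiments 1 and 2 for *rnf13*, *kng1* and *thumpd3*, and with experiments 3 to 5 for *tex264a* and *zgc:174263*.

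The widest difference of all was that of a probe set without a gene name, which was picked here after its values were seen. Its signals were 21.3 and 77.5 with ethanol and 181 and 116 in controls of experiments 1 and 2, against 2887 to 4073 (median 3488) in experiments 3 to 5 (log2 difference -5.51). Experiment 6 had 145 and 91.4, so that the signal was high in 3 experiments and far lower in the other 3. *plscr3b*, a phospholipid scramblase gene picked in the same way, had 339 to 414 in experiments 1 and 2, 2537 to 3097 in experiments 3 to 5 and 2749 and 2639 in experiment 6. *hadhaa*, which encodes the alpha subunit of the mitochondrial trifunctional protein of fatty acid oxidation, was instead low in experiment 6, at 113 to 161 in experiments 1 and 2, 658 to 1002 in experiments 3 to 5 and 166 and 192 in experiment 6. All-or-none probe sets were counted by a rule set after the values were seen: all arrays of one set under 100 and all arrays of the other at least 3-fold above the brightest of these. There were 20, with 5 bright in experiments 1 and 2 and 15 bright in experiments 3 to 5. Both arrays of experiment 6 were under 100 in 9 of them, as bright as the bright set in 6 and between in 5. Over all 642 called probe sets, both arrays of experiment 6 lay nearer to experiments 1 and 2 in 193 (30.1%), nearer to experiments 3 to 5 in 349 (54.4%) and on different sides in 100. Of the 301 higher probe sets 40.5% were with experiments 1 and 2 and 43.9% with experiments 3 to 5, and of the 341 lower ones 20.8% and 63.6%. The side that experiment 6 took thus varied from gene to gene.

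Many genes are read by several probe sets, and these did not always move together. Of 995 genes with several tested probe sets, 107 had at least 1 called. All probe sets were called in 22 of the 107 and only some in 85. *fpgs*, the folylpolyglutamate synthase gene, had the widest gap between probe sets. Its set with the largest difference (3.09) had means of 61.0 in experiments 1 and 2 and 11.1 in experiments 3 to 5, while its brightest set had means of 442 and 457 and a difference of -0.09. *farp2*, a guanine nucleotide exchange factor gene, had 1 set at 233 to 304 in experiments 1 and 2 and 37.1 to 81.0 in experiments 3 to 5 (2.37). Another *farp2* set stood at 236 to 310.1 and 189.9 to 295 (0.13), and a brighter one differed by -0.44. For *txndc5*, a protein disulfide isomerase gene, the differences ran from -2.43 to 0.31 over 5 probe sets. *cops4*, of the COP9 signalosome, had one set at 2.05 and the others at -0.21 and -0.70. *wwp2*, a ubiquitin ligase gene, was the only gene called in both directions, with a dim set at a log2 difference of 2.55 (81.6 in experiments 1 and 2 and 16.5 in experiments 3 to 5) and a bright one at -1.003 (856 and 1690.3), and the bright one lost its call on the ethanol arrays alone, without experiment 1 or 5, and after quantile normalization. On log2(signal + 50) neither set of *wwp2* was called. *tmem254* had sets at 2.18, a call lost on log2(signal + 50) and without experiment 2, and at -0.97, which was not called. Whether such splits come from sequence variants under the probes, from transcript forms or from wrongly assigned probe sets was not tested. Averaged over the probe sets of a gene, 182 genes were higher in experiments 1 and 2 and 204 lower. In gene order along the chromosomes, 9.53% of the 902 tested neighbours of called genes were called too, beside 6.98% of all 6475 placed genes. Neighbours here follow each other among the tested genes, and genes that were not tested are passed over. Of the 43 such pairs 20 moved the same way and the others did not. In 1 run *ndufa6*, *nol12* and *zgc:174288* were higher in experiments 1 and 2, the next gene, *a2m3b*, was lower, and *kdelr3* after it was higher.

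**Figure D3:**
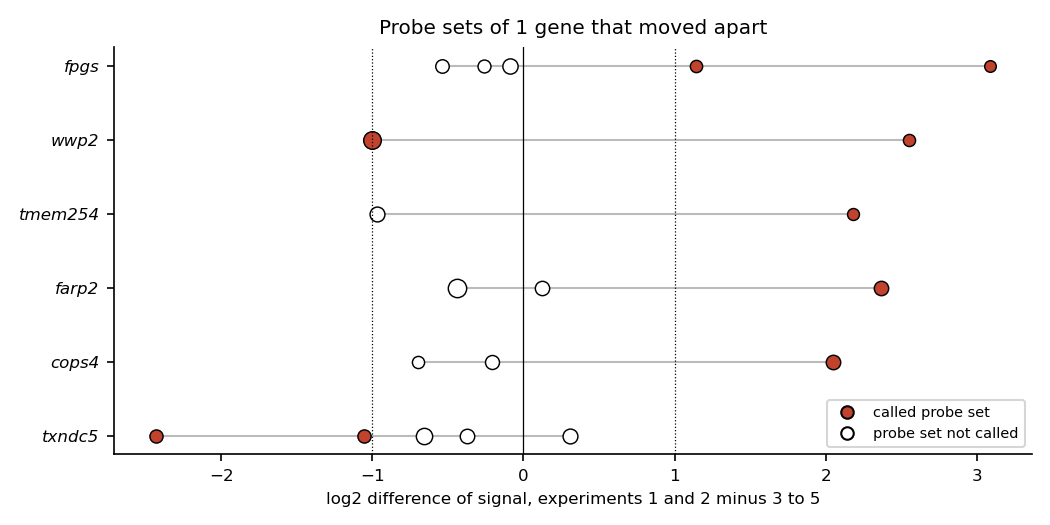
Log2 difference of signal (experiments 1 and 2 minus 3 to 5) of each tested probe set of the 6 genes whose probe sets lay farthest apart, with larger points for brighter probe sets and dotted lines at 2-fold. For *fpgs* the probe sets span -0.54 to 3.09, and *wwp2* is the one with a called probe set on each side.

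With regard to stage, genes that come on around the onset of gastrulation were mostly higher in experiments 1 and 2, by small amounts, and the sets overlapped in most. Of 42 tested genes of this list, 3 were called higher, 0 lower and 39 not called. Of all tested probe sets, 3.02% were called higher and 3.42% lower. Whatever the fold, 8 of the 42 (19%) were higher with no overlap and 1 (2.38%) lower, beside 13.8% and 13.7% of all tested. A difference above 0 was found in 35 of the 42 (83.3%), beside 52% of all tested probe sets. The list's median difference was 0.31, against 0.02 over all tested. *cdx4*, a caudal gene of the tail and posterior mesoderm, had 681 and 865 with ethanol and 1073 and 1104 in controls of experiments 1 and 2, against 157 to 503 (median 290.3) in experiments 3 to 5 and 339 and 551 in experiment 6 (log2 difference 1.68). Every *cdx4* array of experiments 1 and 2 was above every array of the others. The protocadherin gene *pcdh18a*, which acts in cell movement, stood at 80.3 and 103 with ethanol and 156 and 131 in controls of experiments 1 and 2, against 25.6 to 63.1 (median 48.2) in experiments 3 to 5, a 2.46-fold difference that was not called on log2(signal + 50). *gbx1*, a homeobox gene of the early neural plate, had 376 and 427 with ethanol and 376 and 325 in controls of experiments 1 and 2, against 126 to 226 (median 199.8) in experiments 3 to 5. Its log2 difference of 1.003 lies at the threshold, and the call was lost after median centring, after quantile normalization, on log2(signal + 50), on the ethanol arrays alone and without experiment 1 or 4. Of the 3 calls of the list, 1, that of *cdx4*, thus held on log2(signal + 50). Among members not called, *her7* had a difference of 1.05 with overlapping sets, *fzd8b* one of 0.99, and *sox32*, the endoderm regulator, one of 0.88, while *foxa2* (-0.70) was the lowest. With the treatments apart, the median difference of the list was 0.24 on the ethanol arrays and 0.46 on the control arrays. In experiment 6 the median was 0.05 above experiments 3 to 5.

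Genes of the first zygotic wave, which are expressed from the mid-blastula on, gave a call in each direction. Of 54 tested, 1 was called higher, 1 lower and 52 not called. Of all tested probe sets, 3.02% were called higher and 3.42% lower. Whatever the fold, 8 of the 54 (14.8%) were higher with no overlap and 5 (9.26%) lower, beside 13.8% and 13.7% of all tested. The list's median difference was 0.15, and it was 0.03 without experiment 2 and 0.07 on the ethanol arrays. *sp5a*, a Wnt target and transcription factor gene, had 493 and 538 with ethanol and 557 and 612 in controls of experiments 1 and 2, against 197 to 328 (median 299.8) in experiments 3 to 5 (log2 difference 1.02), and its call was lost after median centring, on log2(signal + 50), on the control arrays alone and without experiment 2, 4 or 5. The histone gene *hist2h2l* was lower, at 215 and 254 with ethanol and 205 and 250.3 in controls of experiments 1 and 2, against 532 to 795 (median 639) in experiments 3 to 5 (log2 difference -1.48). The dorsal and mesodermal genes *noto* (-0.09), *gsc* (-0.03), *chrd* (-0.24), *tbx16* (-0.02) and *tbxta* (0.22) were not called.

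Maternal transcripts moved both ways, with more of the calls lower. Of 30 tested genes stored in the oocyte, 1 was called higher, 4 lower and 25 not called. Over all tested probe sets, 3.02% were called higher and 3.42% lower. Whatever the fold, 3 maternal genes (10%) were higher with no overlap and 8 (26.7%) lower, beside 13.8% and 13.7% of all tested. The median difference was -0.07, with -0.14 without experiment 1 and -0.01 without experiment 2. *gdf3*, the maternal Nodal partner Vg1, had 3475 and 3511 with ethanol and 2176 and 3200.4 in controls of experiments 1 and 2, against 5429.6 to 6810.4 (median 6392) in experiments 3 to 5 (log2 difference -1.02). Experiment 6, at 3031 and 2748, was as low as experiments 1 and 2, and the *gdf3* call was lost on the ethanol arrays alone and without experiment 1 or 5. *npm2b*, which encodes an oocyte nucleoplasmin, stood at 1354 and 1353 with ethanol and 1412 and 2084 in controls of experiments 1 and 2, against 2690.4 to 3838 (median 3288) in experiments 3 to 5 and 2222 and 2134 in experiment 6 (log2 difference -1.12). Without experiment 1 it was not called. *cpeb1b*, whose product controls polyadenylation of maternal messages, was at 424 and 282 with ethanol and 239 and 234 in controls of experiments 1 and 2, against 655 to 1096 (median 781) in experiments 3 to 5 (log2 difference -1.49). Here experiment 6, with 816 and 706, lay with experiments 3 to 5. The claudin gene *cldnd*, outside the naming rule and picked after its values were seen, differed by -1.01. In the opposite direction *ctsll*, a cathepsin L gene, had 1034 and 1399 with ethanol and 1526 and 1066 in controls of experiments 1 and 2, against 447 to 856 (median 555) in experiments 3 to 5 (log2 difference 1.11), and it was not called on the control arrays alone. Well known maternal regulators lay close to 0: *ccnb1*, the cyclin B1 gene, at -0.06, *ybx1* at 0.11, *buc*, the Balbiani body organizer, at 0.06, and *mos* at -0.03. *btg4* (0.50), *slbp2* (0.59) and *bmp15* (0.61) were higher in experiments 1 and 2 but not called.

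Other genes of the oocyte were seen among the lower ones and are given as values, since the choice was made from those values. The egg envelope genes *zp3c* (-1.11), *zp3d.1* (-1.19) and *zpax1* (-1.62), the oocyte form of the cap-binding protein gene, *eif4e1b* (-1.67), and a maternal linker histone gene, *histh1l1* (2.46-fold lower), were all called lower. For *eif4e1b* the signals were 634 and 697 with ethanol and 688 and 918 in controls of experiments 1 and 2, against 2151 to 2495 (median 2304) in experiments 3 to 5 and 1965 and 2248 in experiment 6. *wee2*, an oocyte kinase gene that also stands in the maternal list, was read by 5 probe sets, of which 3 were called lower and the brightest differed by -0.18. Against these stand the members of the ovarian list, where 6 were tested and 0 called, among them the egg envelope genes *zp3b* (-0.81) and *zp2.6* (-0.04). Of 12 tested germ plasm genes, 0 were called higher and 1 lower, beside 3.02% and 3.42% of all tested probe sets. The 1 was *nanos3*, needed for primordial germ cells, with 702 and 682 with ethanol and 529 and 439 in controls of experiments 1 and 2, against 1299 to 1849.8 (median 1466) in experiments 3 to 5 and 938 and 942 in experiment 6 (log2 difference -1.38). *ddx4* (-0.43), *dazl* (0.45) and *tdrd7a* (0.34), which mark the same cells, were not called, and they differed in sign.

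**Figure D4:**
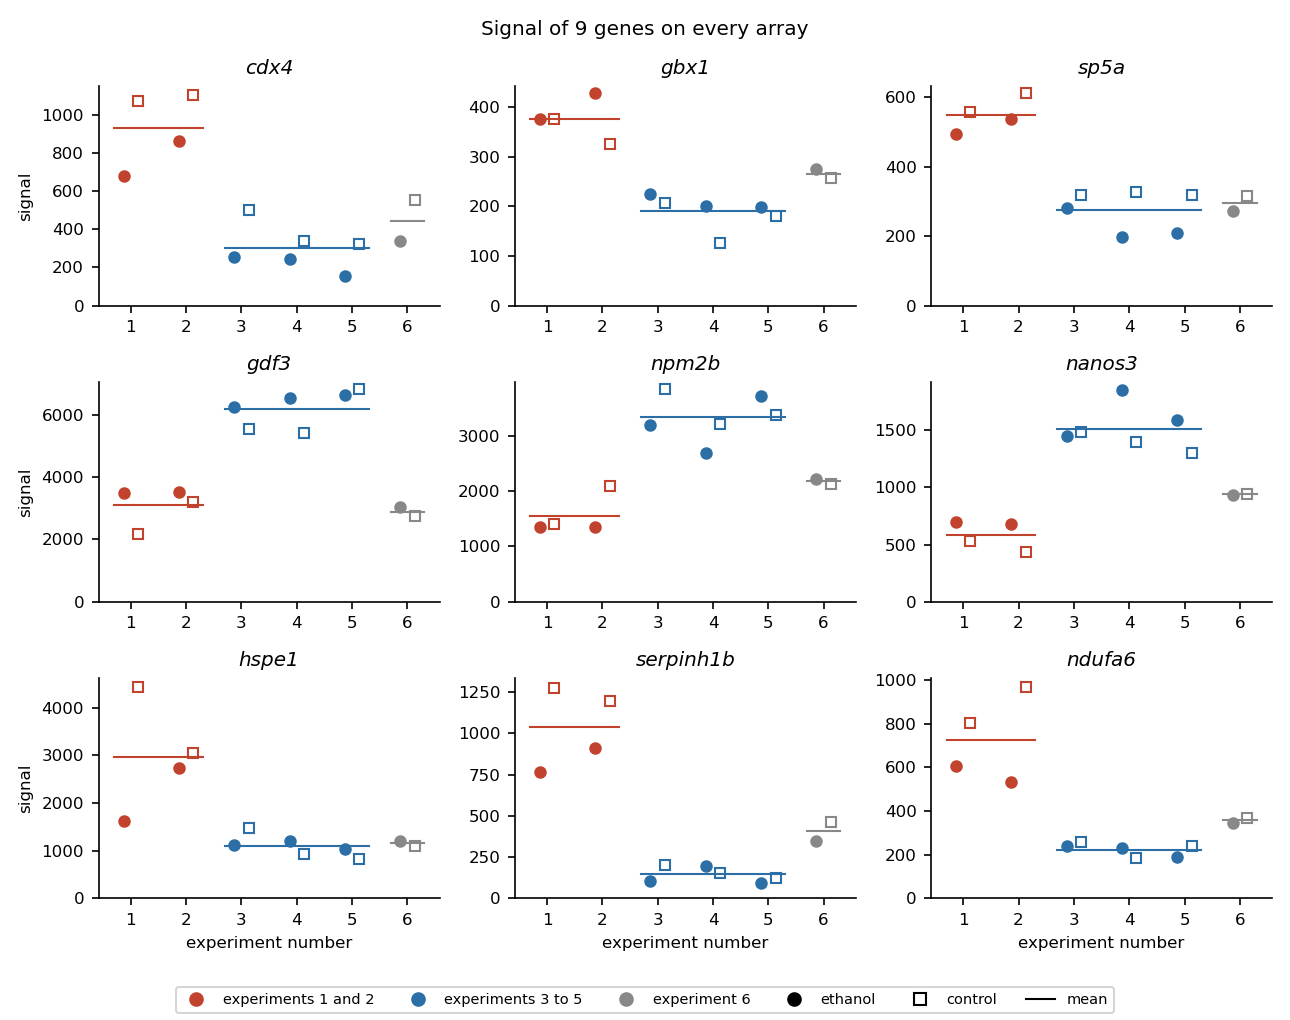
Signal on every array of 3 genes of early zygotic expression (top), 3 maternal or germ plasm genes (middle) and 3 chaperone or respiratory chain genes (bottom), by experiment number, with ethanol as filled circles, control as open squares and lines at the means of experiments 1 and 2, 3 to 5, and 6. For *cdx4* the means are 931 and 304 in experiments 1 and 2 and in experiments 3 to 5, and for *nanos3* 588 and 1512. The panels are examples and do not stand for their lists. In the first zygotic wave 1 gene was called higher and 1 lower, *hist2h2l* (-1.48). In the maternal list 1 was called higher, *ctsll* (1.11), and 4 lower. Gastrula onset genes gave 3 higher and 0 lower, and germ plasm genes 0 and 1. The calls of *gbx1*, *pcdh18a* and *sp5a* were lost on log2(signal + 50).

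A few chaperone genes differed widely. Of 18 tested heat shock and chaperone genes, 3 were called higher, 0 lower and 15 not called, with a median difference of 0.33. Over all tested probe sets, 3.02% were called higher and 3.42% lower. Whatever the fold, 7 of the list (38.9%) were higher with no overlap and 3 (16.7%) lower, beside 13.8% and 13.7% of all tested. *hsp90aa1.2*, a stress-inducible Hsp90 gene, had 486 and 899 with ethanol and 1266 and 764 in controls of experiments 1 and 2, against 57.9 to 231 (median 80.1) in experiments 3 to 5 and 74.6 and 125 in experiment 6 (log2 difference 2.97). A second *hsp90aa1.2* probe set differed by 2.78, and the signal of a near-identical neighbouring copy on these probes cannot be told apart. *serpinh1b*, which encodes the collagen chaperone Hsp47, stood at 768 and 914 with ethanol and 1275 and 1198 in controls of experiments 1 and 2, against 94.0 to 201 (median 136) in experiments 3 to 5 (log2 difference 2.88). Both arrays of experiment 6, at 345 and 464, lay above all 6 of experiments 3 to 5 and below all 4 of experiments 1 and 2. *hspe1*, the mitochondrial Hsp10 gene, had 1627 and 2734 with ethanol and 4438 and 3041 in controls of experiments 1 and 2, against 826 to 1476 (median 1071) in experiments 3 to 5 (log2 difference 1.37), and on the ethanol arrays alone its difference was 0.92. Its partner in the chaperonin, *hspd1*, differed by -0.40, and the mitochondrial Hsp70 gene *hspa9* by -0.90 on its brightest probe set. A dimmer *hspa9* set, picked after its values were seen, was called lower (-1.07). The stress-inducible *hsp70.3* was not called: its arrays in experiments 1 and 2 had 88.7 and 1212 with ethanol and 255 and 104 in controls, against 33.2 to 154 (median 61.3) in experiments 3 to 5, so that 1 array, ethanol of experiment 2, held most of the signal. Other chaperone genes, *hspa8* (0.06), *hspb1* (0.23), *hsp90ab1* (-0.17) and *dnajb1b* (0.04), were not called. Without genes of a mean signal under 200 the median of the list was 0.15.

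The stress and immune lists that follow stand beside 3.02% of all tested probe sets called higher and 3.42% called lower. Whatever the fold, 30% of the 10 tested hypoxia genes were higher with no overlap and 0% lower, beside 13.8% and 13.7% of all tested. Of these 10, 3 were called higher and 0 lower. These were *ddit4*, an inhibitor of the mTOR pathway, with 2662 and 2614 with ethanol and 1826 and 2108 in controls of experiments 1 and 2, against 909 to 1236 (median 992) in experiments 3 to 5 and 2173 and 2040.5 in experiment 6 (log2 difference 1.16), *p4ha1b*, a collagen prolyl hydroxylase gene (1.28), and *epas1a*, which encodes a hypoxia-inducible factor (1.31). For *p4ha1b*, too, experiment 6 was high (386 and 345), whereas for *epas1a* it was low (50.4 and 99.8). On log2(signal + 50) only *ddit4* of these 3 was called. The glycolytic *hk1* (0.52) and *hk2* (0.05) and *hif1ab* (-0.12) were not called. Of 19 immediate early and stress genes, *nr4a1* was the only one called, and it was lower. Without regard to the fold, 2 of the 19 (10.5%) were higher with no overlap and 4 (21.1%) lower. A difference above 0 was found in 10 of the 19. The median of this list was 0.32 on the ethanol arrays and -0.08 on the control arrays. *fosab* (0.32), *jun* (0.43), *atf3* (0.32) and *dusp1* (0.24) were not called, and the 3 probe sets of *fosab* ran from -0.78 to 0.98. None of 17 tested clock genes and none of 11 p53 target genes was called, with median differences of 0.13 each. Of 6 interferon genes 1 was called, *irf1b*, with 399 and 401 with ethanol and 179.9 and 163 in controls of experiments 1 and 2, against 36.9 to 106 (median 56.0) in experiments 3 to 5, a 4.29-fold difference. Of 6 tested genes of the MHC and other families that vary between strains, *tapbp.1*, which encodes tapasin, was called lower, at 84.8 and 78.7 with ethanol and 91.9 and 65.9 in controls of experiments 1 and 2, against 302 to 493 (median 342) in experiments 3 to 5 and 248 and 242 in experiment 6 (log2 difference -2.14).

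Many genes of oxidative phosphorylation and of the mitochondrial ribosome had a small higher signal in experiments 1 and 2, although few passed 2-fold. Mitochondrial genes named in other paragraphs went both ways. Among them *atp5mea* (-3.42) and *aldh2.2* (-1.06) were lower, and *pck2* (2.97) and *hspe1* (1.37) were higher. Of 67 tested genes of oxidative phosphorylation, 6 were called higher, 2 lower and 59 not called. Of all tested probe sets, 3.02% were called higher and 3.42% lower. Without regard to the fold, 27 of the 67 (40.3%) were higher with no overlap and 6 (8.96%) lower, beside 13.8% and 13.7% of all tested. The median difference of the list was 0.30. *ndufa6*, a gene of respiratory complex I, had 605 and 532 with ethanol and 806 and 969.7 in controls of experiments 1 and 2, against 184 to 259 (median 234) in experiments 3 to 5 and 347 and 368 in experiment 6 (log2 difference 1.68). *ndufa5*, of the same complex, stood at 1106 and 1457 with ethanol and 2820.3 and 1920.0 in controls of experiments 1 and 2, against 488 to 899 (median 721) in experiments 3 to 5 (log2 difference 1.31). *cox7b*, of cytochrome c oxidase, was at 1667 and 2448 with ethanol and 4639 and 3361 in controls of experiments 1 and 2, against 829 to 1571 (median 1213) in experiments 3 to 5, a 2.38-fold difference. The calls of *ndufa5* and *cox7b* were lost on the ethanol arrays alone. *atp5f1b*, the gene of the catalytic beta subunit of the ATP synthase, went the other way, with 2485 and 2083 with ethanol and 2342 and 1927 in controls of experiments 1 and 2, against 4363 to 5193 (median 4874) in experiments 3 to 5 (log2 difference -1.14). For these genes the control array of experiment 1, the one with high poly-A spikes, had the highest signal of *ndufa5* and *cox7b*, and the part of its preparation in the result was not tested. The median of the list was 0.10 on the ethanol arrays and 0.54 on the control arrays, and without experiment 1 it was 0.40. In a list added after the values were seen, 59 genes of the mitochondrial ribosome, 4 were called higher, 0 lower and 55 not called, with a median of 0.39. Of these 21 (35.6%) were higher with no overlap and 2 (3.39%) lower. *mrpl47* had 798 and 574 with ethanol and 786 and 779.9 in controls of experiments 1 and 2, against 192 to 289 (median 250.4) in experiments 3 to 5 (log2 difference 1.58), and *mrpl48* (1.37), *mrpl32* (1.29) and *mrpl37* (1.01) were the others. The call of *mrpl37* was lost after median centring, on log2(signal + 50) and without experiment 2 or 5, and that of *mrpl32* on the ethanol arrays alone. For the cytosolic ribosome, of 72 tested genes 0 were called, 5 were higher and 5 lower with no overlap, and the median was 0.05.

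The endoplasmic reticulum held genes that moved strongly in both directions. Of 64 tested genes for folding, glycosylation and translocation in this compartment, a list that was likewise added after the values were seen, 6 were called higher, 10 lower and 48 not called, beside 3.02% and 3.42% of all tested. *edem1*, whose product hands misfolded glycoproteins to degradation, had 373 and 399 with ethanol and 245 and 392 in controls of experiments 1 and 2, against 1229 to 1538 (median 1335) in experiments 3 to 5 and 1530.1 and 1553 in experiment 6 (log2 difference -1.97). *rpn2*, of the oligosaccharyltransferase complex, stood at 205 and 223 with ethanol and 157 and 227 in controls of experiments 1 and 2, against 469 to 752 (median 660.4) in experiments 3 to 5 (log2 difference -1.65). *fkbp10b*, a prolyl isomerase gene for collagen, was lower too (-1.77), whereas *serpinh1b*, which acts on the same client, was higher. The targets of the unfolded protein response *xbp1* (0.29), *herpud1* (0.35), *hyou1* (0.48) and *hspa5*, the BiP gene (0.95), were not called. In alcohol, aldehyde and redox metabolism, 32 tested genes gave 0 called higher and 2 lower, with a median difference of -0.22. Whatever the fold, 3 (9.38%) were higher with no overlap and 10 (31.2%) lower, beside 13.8% and 13.7% of all tested probe sets. *aldh2.2*, the mitochondrial aldehyde dehydrogenase gene, had 492 and 395 with ethanol and 371 and 484 in controls of experiments 1 and 2, against 793 to 1007 (median 916) in experiments 3 to 5 (log2 difference -1.06), and it was not called on log2(signal + 50). The peroxiredoxin gene *prdx1* stood at 509.9 and 591 with ethanol and 519 and 694 in controls of experiments 1 and 2, against 1201 to 1434 (median 1328) in experiments 3 to 5 (log2 difference -1.20), and experiment 6 was higher still (1861 and 1781). The alcohol dehydrogenase genes *adh5* (-0.89) and *adh8b* (-0.88) were lower but not called. Cyclins, kinases and mitotic genes gave 0 calls among 36 tested, with a median of 0.03. Without regard to the fold, 10 of the 36 (27.8%) were higher with no overlap and 3 (8.33%) lower, beside 13.8% and 13.7% of all tested.

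**Figure D5:**
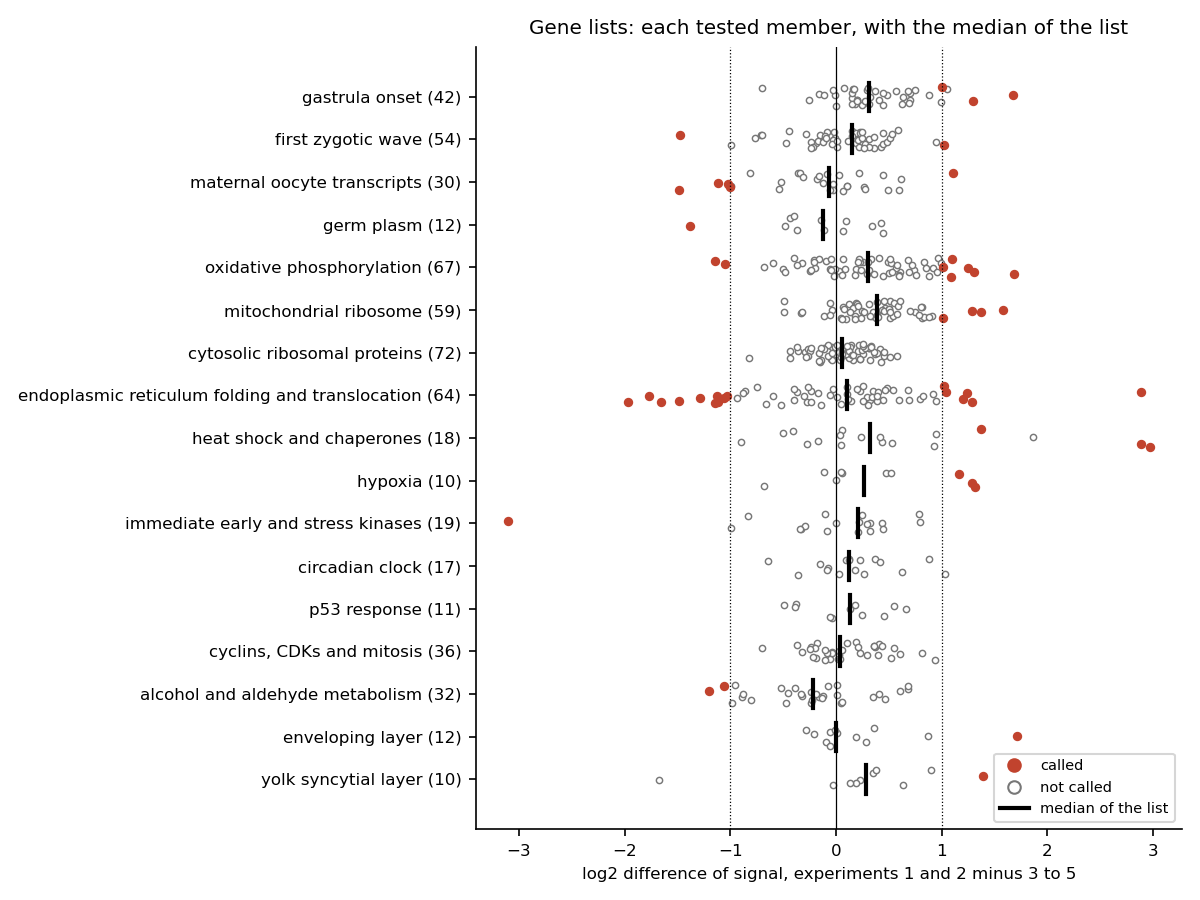
Log2 difference of signal (experiments 1 and 2 minus 3 to 5) of each tested member of 17 gene lists, with called members filled, the number tested in parentheses, the list's median as a black bar and dotted lines at 2-fold. The medians of the gastrula onset (0.31), oxidative phosphorylation (0.30) and mitochondrial ribosome (0.39) lists lie to the right of 0, and that of the cytosolic ribosomal proteins (0.05) lies close to it.

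Markers of the enveloping layer and of the yolk syncytial layer gave 1 call each. Of all tested probe sets, 3.02% were called higher and 3.42% lower. Of 12 tested enveloping layer markers 1 was called higher and 0 lower. Whatever the fold, 1 of the 12 (8.33%) was higher with no overlap and 0 lower, beside 13.8% and 13.7% of all tested. The summed signal of these 12 was 39336 to 47793 in experiments 1 and 2 and 39651 to 52427 in experiments 3 to 5. The keratin genes *krt4* (-0.10), *krt5* (-0.05), *krt8* (-0.06) and *krt18a.1* (0.01) were not called. The 1 called was *anxa1c*, an annexin gene, with 209.8 and 349 with ethanol and 612 and 493 in controls of experiments 1 and 2, against 80.2 to 194 (median 113) in experiments 3 to 5 (log2 difference 1.71). Of 10 markers of the yolk syncytial layer 1 was called higher, the transferrin gene *tfa*, at 192 and 263 with ethanol and 377 and 329 in controls of experiments 1 and 2, against 66.3 to 209.6 (median 104) in experiments 3 to 5 (log2 difference 1.39). Of these 10 markers 8 had a difference above 0, with a median of 0.29. It was 0.13 on the ethanol arrays and 0.45 on the control arrays. Whatever the fold, 3 (30%) were higher with no overlap and 0 lower, beside 13.8% and 13.7% of all tested probe sets. The sums of the 10 markers were 23295 to 37502 in experiments 1 and 2 and 19292 to 26654 in experiments 3 to 5. Of 8 muscle genes on the array 5 were tested and 2 called higher, the creatine kinase gene *ckma*, at 93.1 to 131 in experiments 1 and 2 and 13.1 to 64.0 in experiments 3 to 5 (1.45, not called on log2(signal + 50)), and the troponin gene *tnnt3a*, at 221 to 407 and 68.7 to 131 (1.37). Of the 5 tested muscle genes 3 had a difference above 0, with a median of 0.18 and a median absolute difference of 1.28. The median was -0.50 on the ethanol arrays and 1.35 on the control arrays. The summed muscle signal was low throughout, at 459.7 to 852 in experiments 1 and 2 and 338 to 481 in experiments 3 to 5. Of 9 sperm and 7 blood genes on the array 2 and 1 were tested and 0 called.

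Whether ethanol acted differently in both sets was tested on the ratio within an experiment, which takes out the mean level of that experiment. The ratios still come from the same arrays whose likeness made the split, so they are not fully independent of it. Experiments were the blocks: the ethanol minus control log2 ratio was taken in each of experiments 1 to 5 and fitted in limma, with the mean ratio of experiments 1 and 2 minus that of experiments 3 to 5 as the contrast. Of 9963 probe sets 2 (0.0201%) passed the threshold of 0.15 on the adjusted p, with lesser conditions on p and fold, and 0 passed at 0.05. Before adjustment 855 probe sets had p under 0.05, of which 364 were positive. The first was a probe set without a gene name, with 102 and 126 on the ethanol and 8.88 and 9.85 on the control arrays of experiments 1 and 2. All its arrays of experiments 3 to 5 lay at 101 to 141. Its ratios differed by 3.60 (SE 0.23, adjusted p = 0.0688 from limma). The second, *siah2l*, a ubiquitin ligase gene, had 113 and 46.2 on the ethanol and 11.1 and 4.44 on the control arrays of experiments 1 and 2, and 43.1 to 80.3 in experiments 3 to 5 (difference of ratios 2.98, SE 0.24, adjusted p = 0.122 from limma). Both rest on control arrays far under the signal minimum, and neither was called on log2(signal + 50), without the filter on low signal, or without experiment 1, 3, 4 or 5. With no replicate block *siah2l* was not called either. The mean signal of *siah2l* reached 50 only in experiments 3 to 5, so that it entered the test through that set. With a signal minimum of 100 it was not tested. Without experiment 2, which leaves a single experiment in its set, 110 probe sets passed. Next in order were *si:ch211-195b15.8* (2.38, adjusted p = 0.239 from limma) and, on the negative side, an unnamed probe set (-2.35, adjusted p = 0.283), *atp5mea* (-1.56, adjusted p = 0.386) and another unnamed one (-2.54, adjusted p = 0.545), none of which passed. With a signal minimum of 100, *si:ch211-195b15.8* (adjusted p = 0.0427) and the first probe set (adjusted p = 0.0039) passed in limma, and *si:ch211-195b15.8* also passed without experiment 2 (adjusted p = 0.0929). Side by side, the median ethanol ratio of the gastrula onset list was -0.49 in experiments 1 and 2 and -0.31 in experiments 3 to 5, that of cytosolic ribosomal proteins -0.52 and -0.18, and that of oxidative phosphorylation -0.45 and 0.01. The differences between these medians were not tested.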

How the data were processed

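Total RNA of 12 embryo pools was hybridised to 1-colour Affymetrix zebrafish arrays. The authors summarised the scans with MAS5 in Affymetrix Expression Console and deposited a linear intensity (signal) for each of 15617 probe sets. The methods state a scaling target that is not the one found: the 2% trimmed mean was 500.1 on every array, so the scale is taken as deposited, and present calls were not used here. The depth of an array is not a count of reads, and the number of arrays limits the precision. Array medians of the signal were 98.6 to 102 in experiments 1 and 2, 91.6 to 101.2 in experiments 3 to 5 and 98.1 to 106.6 in experiment 6.

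The 115 control probe sets were left out, as were 5539 whose mean signal reached 50 in neither set. The log2 signal was centred within each treatment over experiments 1 to 5, and the mean of experiments 1 and 2 minus that of 3 to 5 is the difference, with no test. Probe sets were named from the platform annotation, with 1 symbol for 10802, several for 135 and none for 4680, and the order of genes was taken from RefSeq GRCz12tu, without its coordinates. Where a gene in a list has several probe sets, its brightest one stands for it.

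The text names the 10 genes with the largest difference in each direction among those called, up to 4 called members of each list, the 6 genes whose probe sets lay farthest apart and the 3 probe sets of lowest interaction p in each direction. The members and lists were chosen with earlier results of these data known. The lists of the endoplasmic reticulum and the mitochondrial ribosome and the genes named as picked were added after the values were seen.

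The ethanol ratios within experiments were tested with limma 3.58.1 in R 4.3.3 with Benjamini-Hochberg adjustment, and the code was tested on simulated data. Arrays of equal number were taken as a pair from 1 experiment, which the labels do not state. Over all experiments, the deviations of same-numbered arrays correlated at 0.361 to 0.626. Within the sets, with their means removed, it was -0.000929 to 0.0510, and experiment 6 (0.626) has no such value. The methods describe independent experiments, the labels only number the arrays within each treatment, and nothing says how their embryos were obtained. Other values were computed in Python 3.11.15 (pandas 2.3.3, numpy 2.4.6, scipy 1.17.1). Alternatives were median centring, quantile normalization, other minimums, log2(signal + 50), each treatment alone, other thresholds, averaging the probe sets of each gene, a fit with no replicate block and leaving out each experiment.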

Additional observations from a re-analysis of the deposited data

Results flagged for a closer look

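Single arrays stood apart within a set of 4 or 6 in 11 of 110 sets of values examined for the named genes, judged on treatment-adjusted log2 signals, where chance flags about 1 in 20. In experiments 1 and 2 these were the control array of experiment 2 for *zgc:174696* (889) and the ethanol array of experiment 2 for *cdx4* (865) and *mrpl47* (574). In experiments 3 to 5 the control array of experiment 3 stood apart for *tspan18a* (22.7), *ctsll* (856), *tfa* (209.6), *ckma* (13.1) and *edem1* (1538). The control array of experiment 5 stood apart for *gdf3* (6810.4), *ndufa5* (488) and *mrpl32* (256).

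In the limma test described above, the difference of ethanol ratios between the sets passed the adjusted p threshold of 0.15 for 2 probe sets. These were *siah2l* (2.98, adjusted p = 0.122) and the probe set without a gene name (3.60, adjusted p = 0.0688). Both rest on control arrays far under the signal minimum, and the mean signal of *siah2l* reached that minimum only in experiments 3 to 5. Both calls held after median centring and quantile normalization. Neither held on log2(signal + 50), without the filter on low signal, or without experiment 1, 3, 4 or 5.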

How the results depend on the processing

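Among the named probe sets, 0 differences of called ones changed sign under the alternatives run, and 4 that were not called did so in 6 values (*fpgs*, *farp2*, *siah2l* and an unnamed one). Of 765 values over 77 named probe sets 705 kept their side of the threshold, 46 lost the call and 14 gained it. Of 23 probe sets that lost a call somewhere, 16 lost it on log2(signal + 50). The counts moved more. On log2(signal + 50), 138 probe sets were higher in experiments 1 and 2 and 180 lower, on the control arrays alone 727 were higher, at 1.5-fold with no overlap 812 were higher and 838 lower, and after averaging the probe sets of each gene 182 genes were higher and 204 lower. Leaving out an experiment gave 337 to 456 higher and 340 to 487 lower, the most without experiment 2. Median centring gave 266 higher and 391 lower.

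For the test of the ethanol ratios, the fit with the experiments as blocks called 2 probe sets. With no replicate block it called 1, with no filter on low signal 0 and on log2(signal + 50) 0. It called 2 with a signal minimum of 100, both at an adjusted p under 0.05, and leaving out an experiment gave 0 to 110. The causes were not tested. The median of the gastrula onset list was 0.46 on the control arrays and 0.22 to 0.44 without 1 experiment, lowest without experiment 2. That of heat shock genes was 0.46 on the ethanol arrays and 0.15 for genes with a mean signal of at least 200, that of oxidative phosphorylation 0.54 on the control and 0.10 on the ethanol arrays, and that of the mitochondrial ribosome 0.25 on the ethanol arrays. Signals under 50 lie near background, and folds against them are uncertain.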
